A study of Homo sapiens with 4 samples.

Results

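YAP-S94A is a form of the transcriptional coactivator YAP in which a serine of the TEAD-binding part is replaced by alanine, so that it binds the TEAD transcription factors poorly. Its expression profile in MCF10A cells was set against that of cells with the empty retroviral vector pQCXIH, to ask what this form still changes across genes. MCF10A is an established, non-tumorigenic human mammary epithelial line. The comparison used 2 of the 4 Affymetrix arrays of the series, and the arrays of wild-type YAP (YAP-WT) and of YAP with both WW domains mutated (YAP-W1W2) are quoted beside them. All 4 cultures had been infected with pQCXIH retrovirus and grew in medium with 5% horse serum, EGF at 20 ng/ml, hydrocortisone at 0.5 µg/ml, insulin at 10 µg/ml and cholera toxin at 100 ng/ml. Each group was 1 culture on 1 array, the labels do not say whether it was a pool of infected cells or a clone, and no loss of the cells' own YAP is named. Affymetrix control probe sets were left out and each gene was represented by 1 probe set, the brightest over the 4 arrays among those with exactly 1 symbol, which gave 19775 genes. The members described here are the 12759 of these whose mean intensity reached the median of all probe sets, 113.6.

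YAP is the output of the Hippo pathway, a chain of kinases that senses cell contact, shape and tension. When the pathway is off, YAP enters the nucleus, and since it has no DNA-binding domain of its own it acts through partners, chiefly the TEAD factors, on genes such as CCN1, CCN2 and ANKRD1. It also carries WW domains that bind proline-rich partners, and an activation domain that the S94A change leaves in place.

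Values are array intensities on the linear scale of the deposited table, and where 4 are given for a gene they are, in this order, for vector, for YAP-WT, for YAP-S94A and for YAP-W1W2. Intensities under 72.9, the 40th percentile of all values, were raised to that floor before log2 was taken, so a fold against an array at the floor is a lower bound. With 1 array per group no difference has a replicate check, no p-value can be given, and genes are counted by a fixed size, at least 2-fold. The intensity scales were close, with 2% trimmed means from 460.3 (vector) to 505.2 (YAP-WT) and 502.6 for YAP-S94A. On the YAP-S94A array the bacterial BioB, BioC and BioDn control probe sets were lower than on the vector array by log2 values from −0.43 to −1.16, the CreX probe sets by −0.11 and −0.29, and the human actin and GAPDH control probe sets were higher by 0.37 to 0.76; their part in the results was not tested. The 3 YAP1 probe sets differed from vector by log2 values of 0.04, 0.26 and 0.60, and whether they lie within the construct is not known. All 9 of the basal mammary epithelial markers on the array, among them KRT5, KRT14, CDH1 and EGFR, were above the floor on every array, and their summed intensity was 128261 in vector and 155340 in YAP-S94A. Of 10 fibroblast markers 7 were above the floor in vector and 8 in YAP-S94A, but their summed intensity was 13141 in vector against 3499 in YAP-S94A, with decorin (DCN) most of the vector sum. LUM was at the floor on both arrays, and PDGFRB stood at 86.4 in vector and at the floor in YAP-S94A. Immune markers summed to 1503 in vector and 1059 in YAP-S94A, with PTPRC, CD3E, CD3D, LYZ and NKG7 at the floor on both arrays. Endothelial markers summed to 1180.5 and 1543.5, with CDH5, VWF, TEK, TIE1, EMCN and CLDN5 at the floor on both. KDR stood at 201 in vector and at the floor in YAP-S94A. In RNA from whole cultures, fewer cells of a type and less RNA per cell cannot be told apart.

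A total of 1312 genes (10.3%) passed 2-fold with the higher value in YAP-S94A and 833 (6.53%) with the lower value there, so that 61.2% of the 2145 genes past 2-fold were higher. The median over all genes kept was 0.14 (log2), with an SD across genes of 0.79. This balance depends on the scale of the arrays: with the medians of the arrays made equal, the median gene moved to −0.01, the counts became 973 higher and 1092 lower, and 47.1% of the genes past 2-fold were higher. List medians are therefore also given relative to the median gene. Among the genes named in the text, ALDH1A3, BAK1, CCL20, CENPA, CYP26B1, FDPS, FSTL3, HES4, KRT7, MCM4, MT1X, MYC, POLE, SKP2 and ZFP36L2 were past 2-fold as deposited but not with equal medians, where their log2 folds were 0.85 to 0.98. Larger differences were fewer, with 186 genes past 4-fold upward and 164 downward, and at 8-fold the lower genes outnumbered the higher ones by 31 to 17. All 7 genes that differed by at least 16-fold were lower in YAP-S94A. Dim genes passed 2-fold more often: in the dimmest 25% of the genes kept 12.4% were higher and 10.3% lower, against 9.12% and 3.26% in the brightest 25%. For the 537 higher genes that have other probe sets above the filter, 750 of 857 of those probe sets (87.5%) had the same sign and 386 (45.0%) also passed 2-fold. For the 332 lower genes the numbers were 489 of 564 (86.7%) and 288 (51.1%). With probe sets averaged, 31 of the named genes past 2-fold no longer passed it, among them the higher HMGA2 (log2 fold 0.90), HBEGF (0.69), BCL2L1 (0.53), CCNB2 (0.76), CCND2 (0.89), POLA2 (0.74) and CFLAR (0.29) and the lower FN1 (−0.66), BCL2L11 (−0.56), KLF9 (−0.40), SRF (−0.77) and TP53INP1 (−0.92). AURKA (0.55), GINS2 (0.02) and PLAUR (0.76) fell short without the probe sets whose IDs mark shared or cross-hybridizing sequence (_s_at and _x_at), and E2F1 (0.86), BCL2 (0.15), NRG1 (0.82) and FOXO4 (−0.89) with the floor at the 60th percentile.

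**Figure D1:**
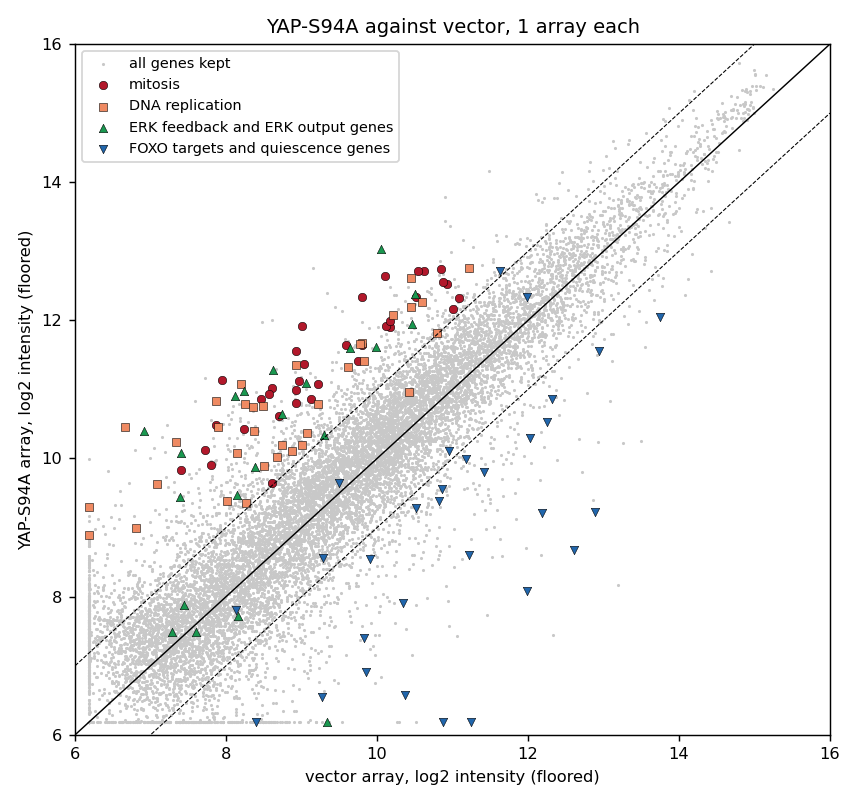
Each point is 1 of the 12759 genes kept, with the floored log2 intensity of the vector array on the x axis and of the YAP-S94A array on the y axis; the solid line marks equality and the dashed lines 2-fold. Mitosis and DNA replication genes lie above the upper dashed line with 1 exception (RFC5), ERK output genes lie mostly above it, and 24 of 30 FOXO and quiescence genes lie below the lower one.

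Genes of mitosis were higher as a group. All 35 mitosis genes passed 2-fold upward in YAP-S94A and 0 downward; in log2 the list median was 2.06, which is 1.92 above the median gene. Among all genes kept 10.3% passed 2-fold upward. HJURP, the chaperone that places the centromeric histone, stood first, at intensities of 247, 1848, 2261 and 2066, which puts YAP-S94A 9.14-fold above vector. The polo-like kinase PLK1 followed at 516, 2283, 3882 and 2842, a 7.52-fold difference. For the mitotic cyclins the intensities were 486, 2463, 3004 and 2214 for CCNA2, 1490, 7009, 6715 and 5204 for CCNB1 and 1150, 4963, 3816 and 3986 for CCNB2, and in each case the vector array was the lowest of the 4. Among the Aurora kinases, AURKA was 5.77-fold higher and AURKB 5.27-fold higher, and the anaphase activator CDC20 was 5.80-fold higher. Outer kinetochore subunits moved to a like extent, with log2 folds of 2.61 for NUF2, 2.43 for SPC25, 2.19 for NDC80 and 2.10 for SPC24. At the low end were the centromeric histone CENPA (1.04), the spindle protein NUSAP1 (1.16) and ASPM (1.23), which had the smallest folds of the list. With the array medians made equal, 34 of the 35 still passed 2-fold.

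DNA replication genes were higher too: 34 of 35 passed 2-fold upward and 0 downward, against 10.3% and 6.53% of all genes kept. The list's median was 1.86 (1.72 relative to the median gene). CDC45, the helicase activator, had intensities of 101, 676, 1403 and 1152 and was the highest of all genes kept among those above the floor on both arrays, at 13.9-fold. Its vector value lies near the floor. The other parts of the same helicase were GINS1 (233, 1060.5, 1825 and 1551, 7.82-fold higher), GINS4 (47.4, 255, 629 and 221, at least 8.63-fold higher), GINS2 (5.82-fold higher) and GINS3 (2.61-fold higher); for GINS2 another probe set stood at 0.02. All 6 MCM2 to MCM7 subunits passed 2-fold, from 5.35-fold higher for MCM5, with intensities of 488, 2159, 2609 and 2505, to 2.04-fold higher for MCM4. Of the loaders that put this helicase on origins, CDC6 was 7.39-fold higher, CDT1 4.82-fold higher and ORC1 at least 6.52-fold higher, the last from below the floor in vector. The polymerase genes POLE2, POLA2, POLD1, POLA1 and POLE had log2 folds of 2.57, 2.54, 1.45, 1.36 and 1.09, and 1 probe set of POLA2 stood at −0.32. The sliding clamp PCNA went from 2379 in vector to 6907 in YAP-S94A, 2.90-fold higher. RFC5, a clamp loader subunit, was the 1 member under 2-fold, at 0.53, though another of its probe sets stood at 2.51.

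Promoters of these 2 groups were searched for known cell cycle elements, and the sequences printed here are shown because they hold matches to them. In textbook models, genes of the late cell cycle are controlled through a cell cycle genes homology region (CHR) and CCAAT boxes bound by NF-Y, and genes of replication through E2F sites. The motifs searched, on both strands of the 250 bases before the RefSeq start site (build GRCh38.p14), were CCAAT, the CHR TTTGAA, its variant TTTAAA, counted separately, and for E2F any of TTTGGCGC, TTTCCCGC, TTTCGCGC and TTTGCCGC. TTTGAA was found in 16 of 30 mitosis promoters, against 8.86% of the 10368 promoters of genes kept and 0 of 32 replication promoters. The variant was found in 11 of 30 mitosis promoters, against 7.47%, and in 0 of 32 replication promoters. It is not particular to mitosis genes, with 7 of 28 promoters of the FOXO and quiescence list described below. In the ERK output, nucleolar, YAP target and cholesterol lists it was in 2 of 13, 2 of 24, 1 of 20 and 0 of 20. CCAAT was found in 24 of 30 mitosis and 18 of 32 replication promoters, against 35.2%. It is common outside the cell cycle too, with 15 of 20 cholesterol and fatty acid and 13 of 28 FOXO and quiescence promoters. In the nucleolar, YAP target and ERK output lists it was in 8 of 24, 4 of 20 and 1 of 13. An E2F match was found in 11 of 32 replication and 2 of 30 mitosis promoters, against 4.24%. The differences between the groups were not tested. Promoters of all 1032 genes at least 2-fold higher held TTTGAA in 11.7% and an E2F match in 5.62%. The 666 promoters of genes at least 2-fold lower held TTTGAA in 10.5% and an E2F match in 4.20%. The variant was in 9.11% of the higher and 9.76% of the lower set, and CCAAT in 38.4% and 37.5%. The first 3 sequences are mitosis promoters of the kinase PLK1 (chr16:23678789-23678888, plus strand), the cyclin CCNB2 (chr15:59105006-59105145, plus strand) and the spindle midzone protein PRC1 (chr15:90994536-90994605, minus strand), and the last 2 are replication promoters of the helicase subunit MCM6 (chr2:135876444-135876613, minus strand) and the sliding clamp PCNA (chr20:5126623-5126792, minus strand). Each ends at the base before the start site, and capitals mark the motif matches on either strand, where overlapping E2F matches run together.
PLK1: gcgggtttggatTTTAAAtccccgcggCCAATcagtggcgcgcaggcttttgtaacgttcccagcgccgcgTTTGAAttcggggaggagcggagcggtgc
CCNB2: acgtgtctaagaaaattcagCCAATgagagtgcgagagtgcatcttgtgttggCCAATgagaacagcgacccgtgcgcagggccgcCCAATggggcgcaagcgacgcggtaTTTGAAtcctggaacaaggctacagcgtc
PRC1: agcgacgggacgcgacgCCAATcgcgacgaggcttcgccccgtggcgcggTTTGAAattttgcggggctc
MCM6: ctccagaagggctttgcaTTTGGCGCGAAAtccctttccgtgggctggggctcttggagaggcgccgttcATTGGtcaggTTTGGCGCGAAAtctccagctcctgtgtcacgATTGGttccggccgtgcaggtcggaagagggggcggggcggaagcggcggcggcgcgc
PCNA: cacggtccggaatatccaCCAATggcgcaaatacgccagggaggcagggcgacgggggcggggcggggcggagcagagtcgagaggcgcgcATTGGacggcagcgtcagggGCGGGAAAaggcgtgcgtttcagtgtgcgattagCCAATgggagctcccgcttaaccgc
On the arrays PLK1 had intensities of 516, 2283, 3882 and 2842, CCNB2 1150, 4963, 3816 and 3986, PRC1 1837, 8489, 6883 and 6067, MCM6 1404, 4828, 6276 and 5932 and PCNA 2379, 6098, 6907 and 6266. All 5 genes were lowest on the vector array, and CCNB2 and PRC1 were highest on the YAP-WT array, the other 3 on the YAP-S94A array. A match describes letters in this window and is no evidence of binding.

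**Figure D2:**
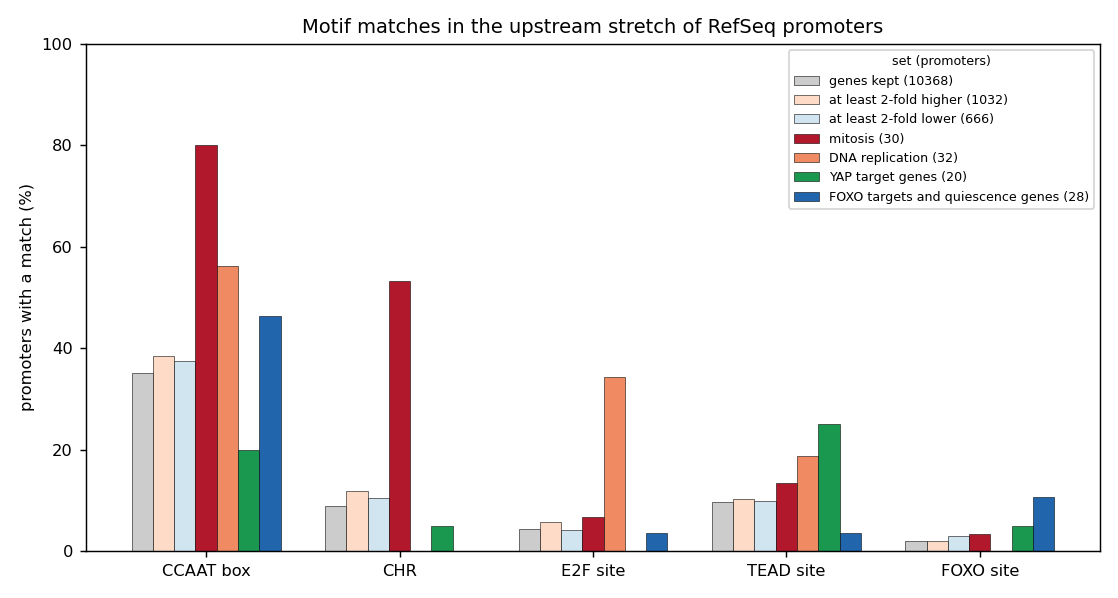
Bars give the percent of promoters with at least 1 match to each motif on either strand in the 250 bases before the start site, for all genes kept, the genes at least 2-fold higher or lower in YAP-S94A than in vector, and 4 gene lists (number of promoters in brackets). CHR bars count TTTGAA and are highest in mitosis promoters (16 of 30), and E2F matches in replication promoters (11 of 32). TEAD matches are at 5 of 20 in YAP target, 6 of 32 in replication, 4 of 30 in mitosis and 1 of 28 in FOXO promoters. Over genes kept they are at 9.66%.

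Around S phase, 17 of 23 genes of homologous recombination and Fanconi repair passed 2-fold upward and 0 downward, for a list median in log2 of 1.31. The shares of all genes kept were 10.3% higher and 6.53% lower. RMI2, a subunit of the complex that dissolves crossed-over DNA, had intensities of 86.7, 801, 899.5 and 724 and was 10.4-fold higher. The nuclease EXO1 was 6.32-fold higher, BRCA1 4.81-fold higher and the helicase BLM 4.54-fold higher. In the nucleotide supply list 9 of 19 were higher and 1 lower. Uridine phosphorylase, UPP1, stood at 566, 979, 6958 and 4755: it was 12.3-fold higher than in vector and 7.11-fold higher than in YAP-WT. The ribonucleotide reductase subunit RRM2 went from 1909.8 in vector to 14067 in YAP-S94A and thymidylate synthase, TYMS, from 1827 to 7391. The 1 lower member was RRM2B, the p53-induced reductase subunit, at 3190.2, 2046, 1065 and 1002 and 3.00-fold lower.

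The regulators above these genes also differed. Of 15 E2F and pocket protein genes, 7 passed 2-fold upward and 1 downward, against 10.3% and 6.53% of all genes kept. The mitotic transcription factors MYBL2 (267, 1774, 1516 and 1496) and FOXM1 (291, 1640.3, 1537 and 1518) were 5.67-fold higher and 5.28-fold higher, and E2F1 was at least 4.53-fold higher, from below the floor in vector. RBL2, the pocket protein p130 of resting cells, was 2.47-fold lower, whereas RB1 stood at a log2 fold of −0.09. Of 18 G1 genes 10 were higher and 2 lower. The phosphatase CDC25A went from 88.7 to 568, cyclin E2 (CCNE2) from 222 to 996 and cyclin D1 (CCND1) from 1012 to 3123. Cyclin D2 (CCND2) had intensities of 829, 338, 1968 and 677, so that it was highest in YAP-S94A and below vector in YAP-WT, but another of its probe sets stood at −0.24 (log2). The CDK inhibitor p57 (CDKN1C) was lowest in YAP-S94A, at 4578, 3793, 825 and 1933, 5.55-fold lower than in vector. The ubiquitin ligase subunit SKP2 was 2.08-fold higher than in vector but lower than in YAP-WT, at 1316, 6224, 2742 and 8483.

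Genes that build ribosomes differed while the ribosome's own protein genes did not pass 2-fold. In the nucleolar ribosome biogenesis list 13 of 30 passed 2-fold upward and 0 downward, against 10.3% and 6.53% of all genes kept. The list's median was 0.96, and with the array medians made equal 9 genes passed upward. LYAR, a nucleolar growth regulator, had intensities of 783, 956, 3312 and 1750.1, the small-subunit factor BYSL 813, 1321, 2338 and 1838 and the large-subunit factor RRS1 1632, 1799.8, 4287 and 2760.3, and all 3 were highest in YAP-S94A and next highest in YAP-W1W2. The transcription factor MYC, known to drive such genes, stood at 4846, 6409.7, 10186 and 4994 and was 2.10-fold higher than in vector. Against YAP-WT the list's median was 0.70, and that of YAP-WT against vector was 0.20. Of 25 cytosolic ribosomal protein genes 0 passed 2-fold either way, and the list's median was 0.17, which turned to −0.13 with quantile normalization. The 31 genes of the respiratory chain and ATP synthase also had 0 past 2-fold, with a median of 0.01.

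In the metabolic lists the shares of higher genes were near the 10.3% of all genes kept. In cholesterol and fatty acid synthesis 3 of 23 passed 2-fold upward and 0 downward: the elongase ELOVL6 (2.80-fold higher), ACAT2 (2.25-fold higher) and farnesyl diphosphate synthase, FDPS (2.19-fold higher). The list's median was 0.51, or 0.37 relative to the median gene. In glycolysis and hypoxia 2 of 24 were higher and 1 lower. The lipase inhibitor ANGPTL4 had intensities of 355, 214, 4029 and 1222, 11.4-fold higher than in vector and 18.8-fold higher than in YAP-WT, where it was lowest. The platelet-type phosphofructokinase PFKP was 2.68-fold higher, with another probe set at 0.01 (log2), and NDRG1 was 2.37-fold lower. Of 27 amino acid response genes 3 were higher and 1 lower, the pseudokinase TRIB3 at 2.30-fold higher and the stress protein NUPR1 at 2750.2, 1501, 608 and 946 and 4.52-fold lower. ATF4 itself stood at 0.06.

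Genes switched on by ERK signalling were higher. Growth factors such as EGF act through their receptors on the kinase ERK, which turns on its own inhibitors along with early growth genes. Of 21 ERK feedback and output genes, 16 passed 2-fold upward and 1 downward, against 10.3% and 6.53% of all genes kept. The list median in log2 was 1.88 (1.74 relative to the median gene). This list, like the others, was chosen with earlier results of these data known, so its direction is a description of its members. The ERK phosphatase DUSP6 had intensities of 120.5, 474, 1342 and 688, and was 11.1-fold higher than in vector. The related phosphatases DUSP4 and DUSP5 had intensities of 392, 1938, 2495 and 2876 and 428, 824, 1595 and 1582. Vector was lowest for all 3, DUSP6 was highest in YAP-S94A, and DUSP4 was highest in YAP-W1W2.

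Of the Sprouty inhibitors of this pathway SPRY4 (169, 485, 1084 and 1024) was 6.42-fold higher and SPRY2 2.81-fold higher, while SPRY1 stood at a log2 fold of 0.21. The ERK-induced ETS factor ETV5 was 6.86-fold higher on the probe set with the most signal and −0.31 (log2) on another. The AP-1 subunit FOSL1 had intensities of 301, 448, 2006 and 775 and the survival gene IER3 1065, 1481, 8415 and 4633, so both were higher in YAP-S94A than in YAP-WT, 4.48-fold and 5.68-fold. The cytokine LIF (167, 156, 695 and 474) and the urokinase receptor PLAUR (798, 509, 3116 and 1122) were higher in YAP-S94A than in vector, 4.15-fold and 3.90-fold, and YAP-WT did not exceed vector. The 1 gene lower in YAP-S94A was the Eph receptor EPHA4, at 644, 241, 35.2 and 243 and at least 8.83-fold lower. Its other probe set stood at −0.91 (log2).

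EGF family ligands stand upstream of these genes. Of 10 ligands, receptors and regulators 3 passed 2-fold upward and 0 downward, all 3 of them ligands. Over all genes kept 10.3% were higher and 6.53% lower. Heparin-binding EGF, HBEGF, had intensities of 105, 109.5, 802 and 628 and was 7.61-fold higher, with another probe set at 0.89 (log2). Transforming growth factor alpha, TGFA, had intensities of 680.5, 683, 1911 and 1446, 2.81-fold higher, and neuregulin, NRG1, 105, 175, 322 and 158, 3.06-fold higher. HBEGF and TGFA were thus near their vector values in YAP-WT and high in both mutants. The receptor-bound inhibitor ERRFI1, LRIG1, betacellulin (BTC) and epiregulin (EREG) were within 0.30 (log2) of vector. Among AP-1 and immediate early genes 4 of 16 were higher, namely IER3, FOSL1, EGR1 (3.69-fold higher) and IER2 (3.44-fold higher), and 1 was lower. That 1 was FOSL2, at 4538, 5007, 1724 and 3657 and 2.63-fold lower, so the FOS-like genes FOSL1 and FOSL2 differed from vector in opposite directions. JUN stood at 0.16, with probe sets from −0.72 to 0.98. IER3, FOSL1 and EGR1 are members of the ERK list as well. FOS itself, chosen after its values were seen, fell under the filter on dim genes and is not in these counts. It had intensities of 316, 29.8, 41.8 and 36.2, at least 4.33-fold lower than vector. Also under the filter, FOSB and EGR3 were at the floor in vector and YAP-S94A and NR4A2 stood at 0.23.

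**Figure D3:**
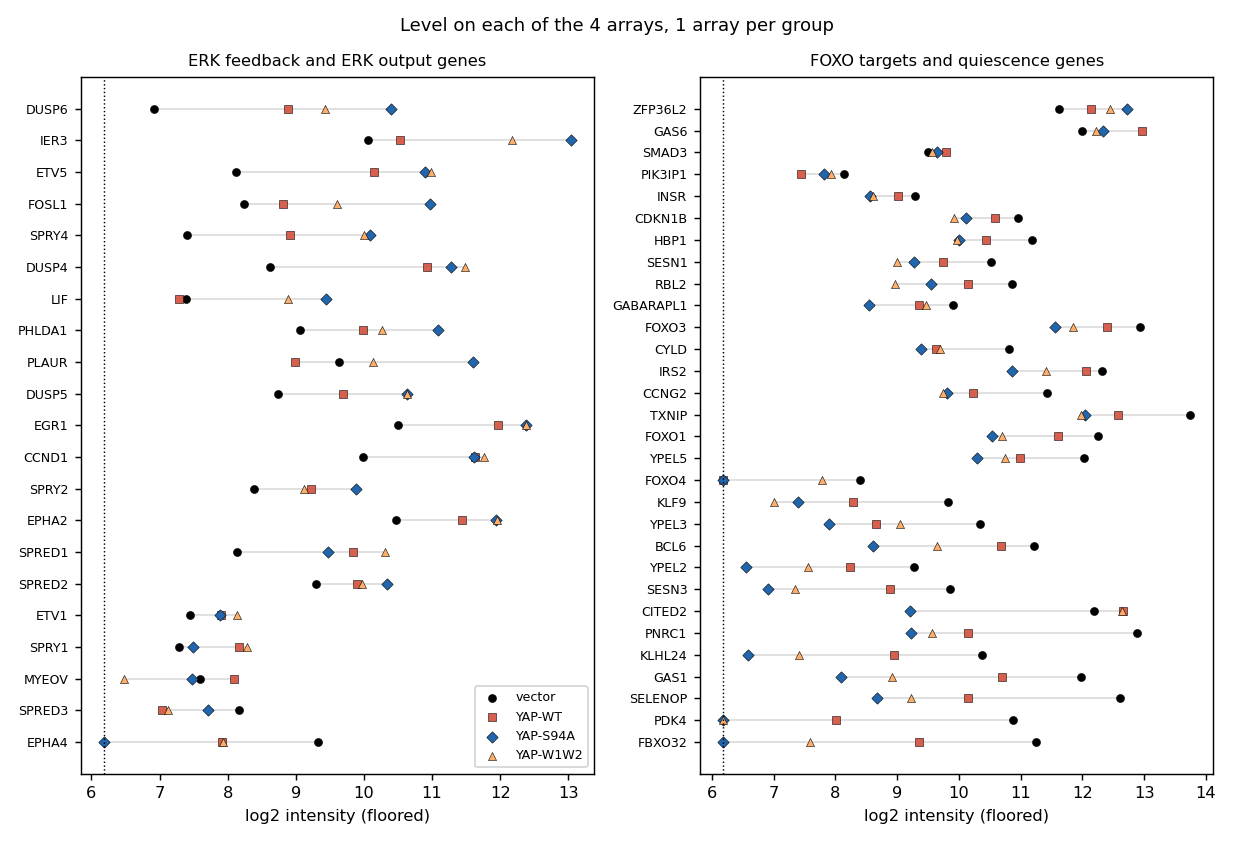
Each row is 1 gene and each symbol 1 array, on a floored log2 intensity axis, with ERK output genes on the left and FOXO and quiescence genes on the right, ordered by the fold of YAP-S94A over vector; the dotted line marks the floor. On the left the YAP-S94A symbol lies right of vector for 16 of 21 genes by at least 2-fold, on the right it lies left of vector by at least 2-fold for 24 of 30.

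Genes linked to FOXO factors and to resting cells were lower. FOXO factors are kept out of the nucleus by insulin and growth factor signalling through AKT, and their targets restrain the cell cycle and adjust metabolism. Of 30 such genes 24 were at least 2-fold lower, against 6.53% of all genes kept, and 1 was higher. The list's median was −1.71, or −1.85 relative to the median gene, and −1.24 when the probe sets of a gene were averaged. This list includes genes already known to be among the lowest on these arrays, so its direction is a description of them.

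The atrophy ubiquitin ligase FBXO32 had intensities of 2422, 652, 63.4 and 193 and was at least 33.2-fold lower, the largest of the bounds. Pyruvate dehydrogenase kinase PDK4, which spares glucose, had intensities of 1882, 257, 68.6 and 53.1 and was at least 25.8-fold lower. Both were below vector in YAP-WT already, and lower again in the mutants. The selenium carrier SELENOP (6253, 1131, 408 and 601), the growth arrest gene GAS1 (4049.6, 1670.3, 272 and 486), KLHL24 (1325, 494, 95.8 and 169.8) and PNRC1 (7582, 1129, 596 and 761) were 15.3-fold, 14.9-fold, 13.8-fold and 12.7-fold lower than in vector. In each of these 4 genes the order of the arrays, from high to low, was vector, YAP-WT, YAP-W1W2 and YAP-S94A.

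The FOXO genes themselves were lower: FOXO1 had intensities of 4894, 3125, 1483 and 1655, 3.30-fold lower, FOXO3 7857, 5396, 3012 and 3704, 2.61-fold lower, and FOXO4 was at least 4.63-fold lower. The insulin receptor substrate IRS2 was 2.74-fold lower, the stress sensors SESN3 and SESN1 7.68-fold lower and 2.37-fold lower, and the thioredoxin inhibitor TXNIP 3.25-fold lower, at 13724, 6109, 4219.5 and 4052. The repressor BCL6 had intensities of 2383, 1653, 390.4 and 802 and the YPEL genes YPEL2, YPEL3 and YPEL5 had log2 folds of −2.73, −2.45 and −1.72. CITED2, a CBP-binding coactivator, behaved unlike the rest. It had intensities of 4671, 6488, 593 and 6388, low only on the YAP-S94A array, 7.88-fold lower than in vector and 10.9-fold lower than in YAP-WT, with its other probe set at −1.77 (log2) against vector. The RNA-binding protein ZFP36L2 was the 1 higher member, at 2.13-fold higher, and GAS6, SMAD3 and PIK3IP1 had log2 folds of 0.35, 0.14 and −0.32. A FOXO motif, GTAAACA on either strand, was found in 3 of 28 promoters of the list (HBP1, SELENOP and TXNIP), against 1.98% over genes kept and 2.85% over genes at least 2-fold lower.

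Hydrocortisone is a glucocorticoid, and the medium of all 4 cultures held it. Of 16 glucocorticoid-responsive genes 7 were at least 2-fold lower in YAP-S94A than in vector and 1 was higher, the metallothionein MT1X (2.08-fold higher, with another probe set at 0.09). Over all genes kept 6.53% were lower and 10.3% higher. The leucine zipper gene TSC22D3 (GILZ) had intensities of 9764, 5445, 1199 and 954 and was 8.14-fold lower. The monoamine oxidase MAOA had intensities of 7457, 1948, 672 and 549.5, 11.1-fold lower, and glutamine synthetase, GLUL, 2.86-fold lower. FKBP5, the immunophilin induced by the same hormone, did not follow them, at 20261, 19287, 19637 and 16870.5 and a log2 fold of −0.05. KLF9 was 5.40-fold lower on the probe set with the most signal and 1.45 (log2) on another. FOXO3 and KLF9 are members of the FOXO list as well.

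Of 20 p53 target genes 7 passed 2-fold downward and 0 upward, against 6.53% and 10.3% of all genes kept. TP53INP1 had intensities of 1929, 913, 284 and 329 and was 6.79-fold lower, SPATA18 was 3.37-fold lower and the repair genes DDB2 and XPC were 2.28-fold lower and 2.17-fold lower. SESN1 and RRM2B, given above, belong here too. The death receptor TNFRSF10B and PLK2 stood at 0.16 and 0.15, and MDM2 at −0.27 with probe sets from −0.96 to 0.95. In the BCL2 family list 5 of 22 (22.7%) were higher and 3 (13.6%) lower. The higher ones hold both pro-survival genes, BCL2L1 (3.01-fold higher), BCL2 (at least 2.77-fold higher) and CFLAR (2.53-fold higher, probe sets from −1.73 to 1.38), and pro-death genes, PMAIP1 (3.02-fold higher) and BAK1 (2.10-fold higher). The lower ones, BNIP3L, HRK and BCL2L11, promote death, at 4.22-fold lower, 2.65-fold lower and 2.60-fold lower.

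YAP target genes, as a list, lay near the median of all genes in YAP-S94A. Of 26 targets 3 were at least 2-fold higher than vector and 2 lower, against 10.3% and 6.53% of all genes, for a list median in log2 of 0.24 (0.10 relative to the median gene). Published YAP overexpression in this same line contributed to the list, which is therefore not independent of such data. Other genes of the list were not analysed here. To show where TEAD could act, 2 well-known target promoters are printed with the TEAD motif GGAATG in capitals, those of CCN2 (chr6:131951373-131951552, minus strand) and of ANKRD1 (chr10:90921088-90921327, minus strand), both from RefSeq and build GRCh38.p14 and ending at the base before the start site.
CCN2: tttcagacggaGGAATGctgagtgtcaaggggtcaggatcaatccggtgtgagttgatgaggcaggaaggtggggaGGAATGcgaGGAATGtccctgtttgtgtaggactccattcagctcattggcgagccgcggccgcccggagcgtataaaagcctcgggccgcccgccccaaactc
ANKRD1: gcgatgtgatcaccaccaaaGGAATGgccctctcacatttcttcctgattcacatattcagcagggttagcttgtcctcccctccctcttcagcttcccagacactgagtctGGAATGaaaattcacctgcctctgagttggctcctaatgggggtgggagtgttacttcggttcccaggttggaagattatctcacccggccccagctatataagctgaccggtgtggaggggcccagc
The motif, on either strand, was found in 5 of 20 promoters of the list (ANKRD1, CCN2, FOXF2, PTPN14 and TGFB2). It was in 9.66% over genes kept, 10.3% over genes at least 2-fold higher in YAP-S94A and 9.91% over those lower. Other lists held it too, with 6 of 32 replication, 4 of 24 nucleolar and 4 of 30 mitosis promoters. For cholesterol, ERK output and FOXO genes it was 2 of 20, 1 of 13 and 1 of 28. The differences between these lists were not tested.

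The matricellular gene CCN2, whose promoter holds 3 matches, had intensities of 323, 5523, 636 and 8075. YAP-S94A stood just under 2-fold above vector (log2 fold 0.98) and was 8.68-fold lower than YAP-WT. CCN1, its relative, had intensities of 5669, 21350.3, 4769.7 and 17804, with YAP-S94A at −0.25 against vector. ANKRD1, a muscle ankyrin repeat protein, had intensities of 9.70, 191, 67.4 and 273: vector and YAP-S94A were both at the floor and the other arrays were above it. The binding protein IGFBP3 had intensities of 2035, 19124, 1712 and 36099, the neurotrophin BDNF 335, 2071, 589.6 and 2762 and the activin subunit INHBA 167, 865, 209 and 1136, with log2 folds over vector of −0.25, 0.81 and 0.32. In all 6 genes the vector and YAP-S94A arrays were the lowest 2 of the 4. The receptor kinase AXL had intensities of 1411, 5432, 1888 and 1023, high on the YAP-WT array alone, and the Hippo scaffold AMOTL2 2764, 7223, 2783 and 4647. Other probe sets put YAP-S94A past 2-fold above vector for AXL (1.57 in log2) and BDNF (1.15).

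Targets that differed from vector in YAP-S94A were 5. The ecto-nucleotidase NT5E had intensities of 389, 1989.7, 4114 and 7258 and was 10.6-fold higher, with its other probe sets from 2.10 upwards. The coagulation initiator F3 had intensities of 2248, 6892, 9189 and 13058, 4.09-fold higher, and the Four-jointed homologue FJX1 602, 1131, 1579 and 895, 2.62-fold higher. For all 3 the YAP-S94A value was also above the YAP-WT value. The secreted protein CCDC80 (5207, 9001, 2464 and 3081) was 2.11-fold lower and the RNA-binding protein RBMS3 (979, 582, 292 and 394) 3.35-fold lower than in vector. ASAP1, FOXF2, MYOF, GADD45A, AMOTL1, EDN1, ARHGEF17 and DOCK5 had log2 folds from 0.20 to 0.69 and CRIM1, AJUBA, PTPN14, LATS2 and TGFB2 from −0.47 to −0.22. Probe sets of some of these targets disagreed in direction, with another probe set at 1.42 for TGFB2, 0.14 for CCN1 and 0.09 for IGFBP3, and DOCK5 probe sets from −0.10 to 1.08. In the same direction but past 2-fold were other probe sets of AMOTL1 (1.06) and LATS2 (−1.55). Directly against YAP-WT, 12 of the 26 were at least 2-fold lower in YAP-S94A and 1, NT5E, was higher, with a median of −0.93. Among all genes kept, 6.27% were at least 2-fold lower in YAP-S94A than in YAP-WT and 5.06% higher. By this measure IGFBP3 was 11.2-fold lower, CCN2 8.68-fold lower, CCN1 4.48-fold lower, TGFB2 4.34-fold lower and INHBA 4.15-fold lower. Vector is no part of that comparison.

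The Hippo pathway's own genes held shares near those of all genes kept, 10.3% higher and 6.53% lower. Of 22 genes 2 were at least 2-fold higher, 1 was lower, and the median was 0.13. TEAD4 had intensities of 310.1, 1055, 1177 and 1661 and was 3.80-fold higher, and the scaffold WWC1 (KIBRA) had intensities of 759, 2132, 1768 and 2632, 2.33-fold higher. The TEAD competitor VGLL4 had intensities of 1274, 744, 596 and 853 and was 2.14-fold lower, though 1 of its probe sets stood at −0.20 (log2). TEAD1 had intensities of 3418, 10308, 4337 and 11483, so it was high on the YAP-WT and YAP-W1W2 arrays and near vector in YAP-S94A. The tumour suppressor NF2 stood at 0.58 and MAP4K4 at 0.61. TEAD2, TEAD3, VGLL1, VGLL3, FRMD6, SAV1, the kinases STK3, STK4, LATS1, LATS2, TAOK1 and TAOK3, the adaptors MOB1A and MOB1B, YAP1 and its paralogue WWTR1 (TAZ) had log2 folds from −0.57 to 0.57. Probe sets disagreed in direction for WWTR1, from −0.05 to 1.39, for SAV1, from −0.42 to 0.60, for MOB1A, from −0.26 to 0.73, and within smaller ranges for TEAD2, STK4, FRMD6, TAOK1 and MAP4K4. In size, other probe sets stood at −1.85 for VGLL3, −1.55 for LATS2, 1.82 for NF2 and 0.10 for WWC1.

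**Figure D4:**
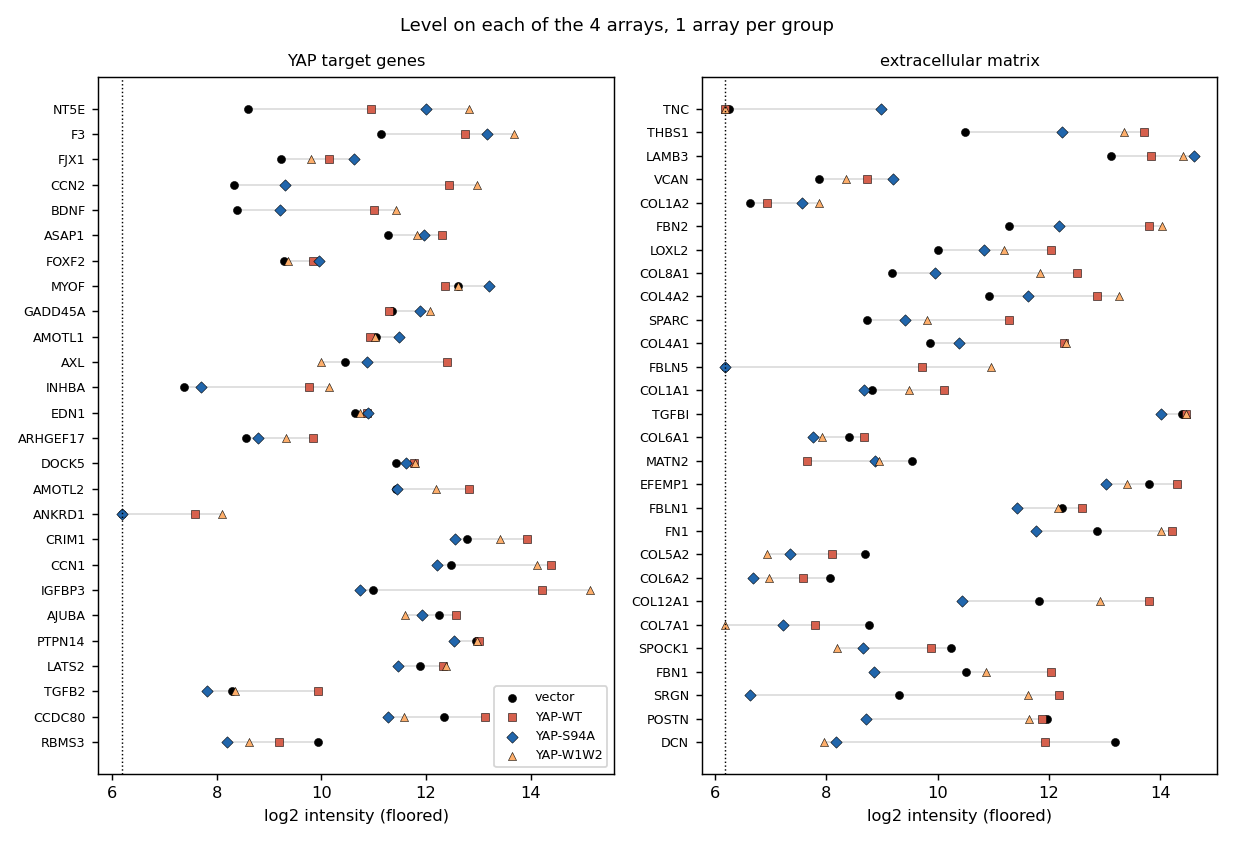
Each row is 1 gene and each symbol 1 array on a floored log2 intensity axis, with YAP target genes on the left and extracellular matrix genes on the right, ordered by the fold of YAP-S94A over vector; the dotted line marks the floor. INHBA, IGFBP3 and CCN1 show YAP-S94A near vector, and CCN2 and BDNF show it right of vector by log2 values of 0.98 and 0.81. For each of these genes YAP-WT and YAP-W1W2 lie further right. DCN, POSTN, SRGN and FBN1 show YAP-S94A left of vector.

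Genes of the extracellular matrix were lower more often than higher: 10 of 28 (35.7%) were at least 2-fold lower than vector and 4 (14.3%) higher. The shares of all genes kept were 6.53% and 10.3%, and the list's median was −0.50. Decorin (DCN), a small collagen-binding proteoglycan, had intensities of 9344, 3884, 288 and 248 and was 32.4-fold lower. Periostin (POSTN) had intensities of 4014, 3736, 419 and 3176, 9.59-fold lower. The proteoglycan serglycin (SRGN) had intensities of 632, 4609.9, 99.5 and 3144 and fibrillin 1 (FBN1) 1454, 4198, 463 and 1857, 6.35-fold and 3.14-fold lower than vector. POSTN, SRGN and FBN1 were lowest on the YAP-S94A array, whereas DCN was low on both mutant arrays. Fibronectin (FN1), at 7419, 18859, 3483 and 16527, and the collagen COL12A1, at 3610.5, 14153, 1379 and 7682, were above vector in YAP-WT and YAP-W1W2 and 2.13-fold and 2.62-fold below it in YAP-S94A; another COL12A1 probe set stood at 0.00 (log2). Of the higher ones, tenascin C (TNC) had intensities of 76.5, 35.3, 504 and 62.8 and was at or near the floor on every array but that of YAP-S94A, where it was 6.58-fold higher. Thrombospondin 1 (THBS1) had intensities of 1446, 13369, 4827 and 10344, 3.34-fold higher than vector but 2.77-fold lower than YAP-WT, with its probe sets from 0.15 to 2.83 against vector. The laminin chain LAMB3 was 2.80-fold higher and versican (VCAN) 2.54-fold higher. The summed fibroblast markers, 13141 in vector and 3499 in YAP-S94A, moved with these genes and share DCN with them, and their part in the result was not tested. Against YAP-WT, 18 of the 28 matrix genes passed 2-fold downward and 2 upward, with a median of −1.26. In that comparison 6.27% of all genes kept were lower and 5.06% higher.

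Of 18 mesenchymal genes 7 were lower than vector and 1 was higher, against 6.53% and 10.3% of all genes kept. The lysyl oxidase LOX, which cross-links collagen, had intensities of 2695, 5315, 671 and 8023 and was 4.02-fold lower. The repressor ZEB2 was at least 6.28-fold lower, TWIST1 2.16-fold lower and the calcium-binding protein S100A4 4.75-fold lower. The higher gene, the actin-binding protein TAGLN, had intensities of 1913, 7449, 11055 and 11121 and was 5.78-fold higher; it is a serum response factor (SRF) target as well. Of 19 actin and SRF target genes 6 were higher and 1 lower, and besides TAGLN the higher ones were ANLN, CTNNAL1, DIAPH3, CNN3 and ZYX, from 2.52-fold to 3.31-fold. SRF was at least 5.74-fold lower on the probe set with the most signal and 0.98 higher (log2) on another. Of 12 integrin subunits 3 were higher and 0 lower: ITGB2 had intensities of 221, 5244, 747 and 1169.7, ITGA2 309, 370.1, 979.6 and 3518 and ITGA3 1620.2, 2845, 4311 and 2868. Of 17 protease genes 4 were higher and 2 lower, among them the metalloprotease ADAMTS1 at 149.5, 2354, 769.8 and 1119 and 5.15-fold higher, and matrilysin (MMP7) at 1047, 864, 219 and 293 and 4.78-fold lower.

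Keratinocyte differentiation genes were mixed. Of 30 genes 10 were at least 2-fold lower than vector and 4 higher, against 6.53% and 10.3% of all genes kept. The list's median was −0.59. The epithelial transcription factor EHF had intensities of 2128, 236, 172 and 95.6 and was 12.4-fold lower. The calprotectin subunit S100A8 had intensities of 4633, 925, 389 and 107, 11.9-fold lower, and the suprabasal keratins KRT1, KRT10 and KRT16 were 4.11-fold, 3.27-fold and 3.83-fold lower. The mucosal keratin KRT4 had intensities of 1138, 4548, 245 and 1426, high in YAP-WT and lowest in YAP-S94A. In contrast the cornified envelope precursor SPRR2B had intensities of 1000.2, 226, 3057 and 731, 3.06-fold higher, the calcium-binding protein S100P 4074, 895, 9381 and 1382, 2.30-fold higher, and the elastase inhibitor PI3 2256, 2344, 5283 and 10494, 2.34-fold higher. The kallikrein KLK10 (1987, 303, 2152 and 199.7), the factor ELF3 (704, 186, 703 and 308) and the factor GRHL3 (645, 348, 710.1 and 267) kept near their vector values in YAP-S94A and were lower on the other arrays. Against YAP-WT, 14 of the 30 genes passed 2-fold upward in YAP-S94A and 2 downward, with a median of 0.96. In that comparison 5.06% of all genes kept were higher and 6.27% lower. SPRR3, chosen after its values were seen, had intensities of 1088, 45.6, 1279 and 191; its second probe set stood at −3.58 (log2) against vector.

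Of 21 junction and polarity genes 3 were higher than vector and 3 lower, 14.3% each, against 10.3% and 6.53% of all genes kept. The claudin CLDN4 had intensities of 261, 54.5, 1130.3 and 82.4, 4.33-fold higher than vector, with the YAP-WT array below the floor. The adhesion molecule EPCAM had intensities of 578, 1216, 2327 and 3440.4 and RAB25, a GTPase of apical traffic, 369.8, 364, 954 and 1249.6, and both were highest in YAP-W1W2. The lower ones were the water channel AQP3 (1415, 309.7, 143 and 65.6, 9.91-fold lower), the polarity gene PARD6B (2.19-fold lower) and desmoplakin, DSP (2.01-fold lower). Against YAP-WT, 8 of the 21 were higher and 1 lower, where all genes kept had 5.06% higher and 6.27% lower. Of 17 basal and luminal mammary genes 5 were higher and 1 lower. The simple-epithelial keratins KRT18 (5609, 16989.6, 18123 and 34605) and KRT7 (14142, 35969.5, 30723 and 39356) were 3.23-fold higher and 2.17-fold higher, though 1 KRT7 probe set stood at −0.58, and the basal keratins KRT5 and KRT14 were at 0.07 and 0.02. The basal keratin KRT15, chosen after its values were seen, had intensities of 7699, 678, 6996 and 1522, so that vector and YAP-S94A were high and the other 2 arrays low.

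Chemokine and cytokine genes held shares near those of all genes kept, 10.3% higher and 6.53% lower. Of 19 genes 3 (15.8%) were at least 2-fold higher than vector and 1 (5.26%) was lower. The neutrophil chemokine CXCL8 had intensities of 645, 189.8, 5414 and 275, 8.39-fold higher than vector and 28.5-fold higher than YAP-WT. PTGS2, the inducible cyclooxygenase, had intensities of 181, 1172, 728 and 4991 and the chemokine CCL20 1325, 3794, 2740.2 and 7270.3, highest in YAP-W1W2. Superoxide dismutase SOD2 had intensities of 2929.9, 823, 380.2 and 541 and was 7.71-fold lower. Interleukin 1 alpha (IL1A) and its antagonist IL1RN had intensities of 2356, 731, 2185 and 483 and 764, 313, 818 and 229.7, near vector in YAP-S94A and lower on the other 2 arrays. Against YAP-WT 10 of the 19 were higher and 1 lower (median 1.01), where all genes kept had 5.06% higher and 6.27% lower. Of 27 interferon-stimulated genes 2 were higher than vector (OAS3 and ISG20, 2.88-fold and 2.57-fold) and 2 lower (IFI44L and IFI44, 4.67-fold and 3.67-fold), with ISG15 at −0.07. Each of these shares was 7.41%, also near those of all genes kept.

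Signalling genes outside the ERK pathway differed in both directions. In the TGF-beta, activin and BMP list 3 of 23 (13.0%) were higher and 5 (21.7%) lower, against 10.3% and 6.53% of all genes kept. The activin antagonist follistatin (FST) had intensities of 261, 121, 938 and 473, 3.59-fold higher, and FSTL3 2.13-fold higher. The inhibitory SMAD6 had intensities of 444, 376, 20.9 and 441, below the floor in YAP-S94A alone and at least 6.10-fold lower, with its other probe set at −1.29 (log2). SMAD7 was 3.20-fold lower, the BMP target ID2 (3242, 1693, 703 and 2235) 4.61-fold lower, the ligand BMP2 3.08-fold lower and the coreceptor TGFBR3 (3004, 1923, 516 and 374) 5.83-fold lower. Of 16 Wnt genes 4 were higher and 3 lower. WNT5A, the ligand of the non-canonical branch, had intensities of 1976, 5462, 191 and 912 and was 10.3-fold lower than vector and 28.6-fold lower than YAP-WT. The inhibitor DKK1 was 2.41-fold lower and the receptor FZD2 2.22-fold lower, while the nuclear factor LEF1 had intensities of 97.3, 183, 364 and 201, 3.74-fold higher.

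Of 14 Notch genes 1 was higher, HES4 at 2.13-fold higher, and 1 lower, the glycosyltransferase LFNG, at least 4.91-fold lower. Both shares were 7.14%, near the 10.3% higher and 6.53% lower of all genes kept. Of 19 guidance, Eph and ephrin genes 6 were higher and 3 lower. The semaphorin SEMA3C had intensities of 7781, 4086, 1207 and 2400 and was 6.45-fold lower, its coreceptors NRP1 and NRP2 were 2.28-fold higher and 2.22-fold higher (1 NRP2 probe set stood at −0.11), and the receptor EPHA2 was 2.78-fold higher while its ligand EFNA1 was 2.46-fold lower. Of 17 aryl hydrocarbon receptor and retinoid genes 4 were higher and 4 lower. All 4 lower ones belong to the aryl hydrocarbon receptor side. The cytochrome CYP1B1 had intensities of 5161, 1655, 173 and 188, 29.8-fold lower, its fellow target ALDH3A1 1963, 197, 246 and 75.1, 7.99-fold lower, the repressor AHRR 399.5, 409, 100.3 and 188, 3.98-fold lower, and the receptor AHR 1544, 1090.5, 719 and 874, 2.15-fold lower. All 4 higher ones, TGM2, STRA6, CYP26B1 and ALDH1A3, belong to the retinoid side, at 3.69-fold, 3.13-fold, 2.03-fold and 2.00-fold. The last lies at the 2-fold threshold. The higher side depends on the choice of probe set and scale. With probe sets averaged, 0 of the 16 genes of the list then kept were higher and 4 lower. With the array medians made equal, 2 of 17 were higher and 4 lower.

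Several of the genes furthest from vector belong to none of these lists. The purine enzyme XDH had intensities of 211, 225, 2288 and 569 and was 10.8-fold higher. The adhesion protein AMIGO2 had intensities of 111, 270.4, 1116 and 101, the chromatin protein HMGA2 148, 336, 1429 and 866 and the kinase anchor AKAP12 192, 759.5, 1816 and 974, 10.0-fold, 9.63-fold and 9.47-fold higher; a second HMGA2 probe set stood at 0.16 (log2). The condensin subunit NCAPH was 8.67-fold higher and DEPDC1B 8.93-fold higher. The clock factor BMAL2 had intensities of 127, 238, 1024 and 548 and MACC1, a regulator of the receptor MET, 96.7, 82.8, 736 and 297, 8.08-fold and 7.61-fold higher, with the YAP-S94A array the highest for both. From below the floor in vector, the mitotic motor KIFC1 (41.8, 228, 1023 and 567) was at least 14.0-fold higher, ERCC6L at least 7.51-fold higher, ADAM33 at least 6.21-fold higher, ITFG2 at least 6.14-fold higher, RHOBTB2 at least 6.06-fold higher, FCMR at least 5.99-fold higher, CENPM at least 5.94-fold higher and SH3PXD2A-AS1 at least 5.88-fold higher. The channel subunit LRRC8C was at least 7.91-fold higher, with other probe sets down to 0.04 (log2).

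Among the lower genes outside the lists, DSEL, an epimerase of dermatan sulfate, had intensities of 2807, 2252, 212 and 815 and was 13.2-fold lower. The microtubule protein MAP2 had intensities of 11540, 9067, 1220.1 and 3548, 9.46-fold lower, and the iron reductase CYBRD1 3219, 4867, 386 and 1891, 8.34-fold lower than vector and 12.6-fold lower than YAP-WT. CREBRF and SORBS2 were 9.40-fold lower and 9.29-fold lower. Below the floor in YAP-S94A lay the membrane peptidase MME (1465, 463, 40.1 and 20.6, at least 20.1-fold lower), C5orf46 (at least 17.1-fold lower), TRAPPC6A (at least 10.1-fold lower), TDRD9 (at least 9.03-fold lower), EVC (at least 8.98-fold lower), MTFR1L (at least 8.79-fold lower), the trypsin inhibitor SPINK1 (at least 8.47-fold lower) and GPNMB (at least 8.02-fold lower). The aquaglyceroporin AQP9 had intensities of 1229, 827, 34.2 and 2044, so it was high on the other 3 arrays, highest in YAP-W1W2 and below the floor in YAP-S94A alone, at least 16.9-fold lower than vector. It rests on 1 probe set.

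**Figure D5:**
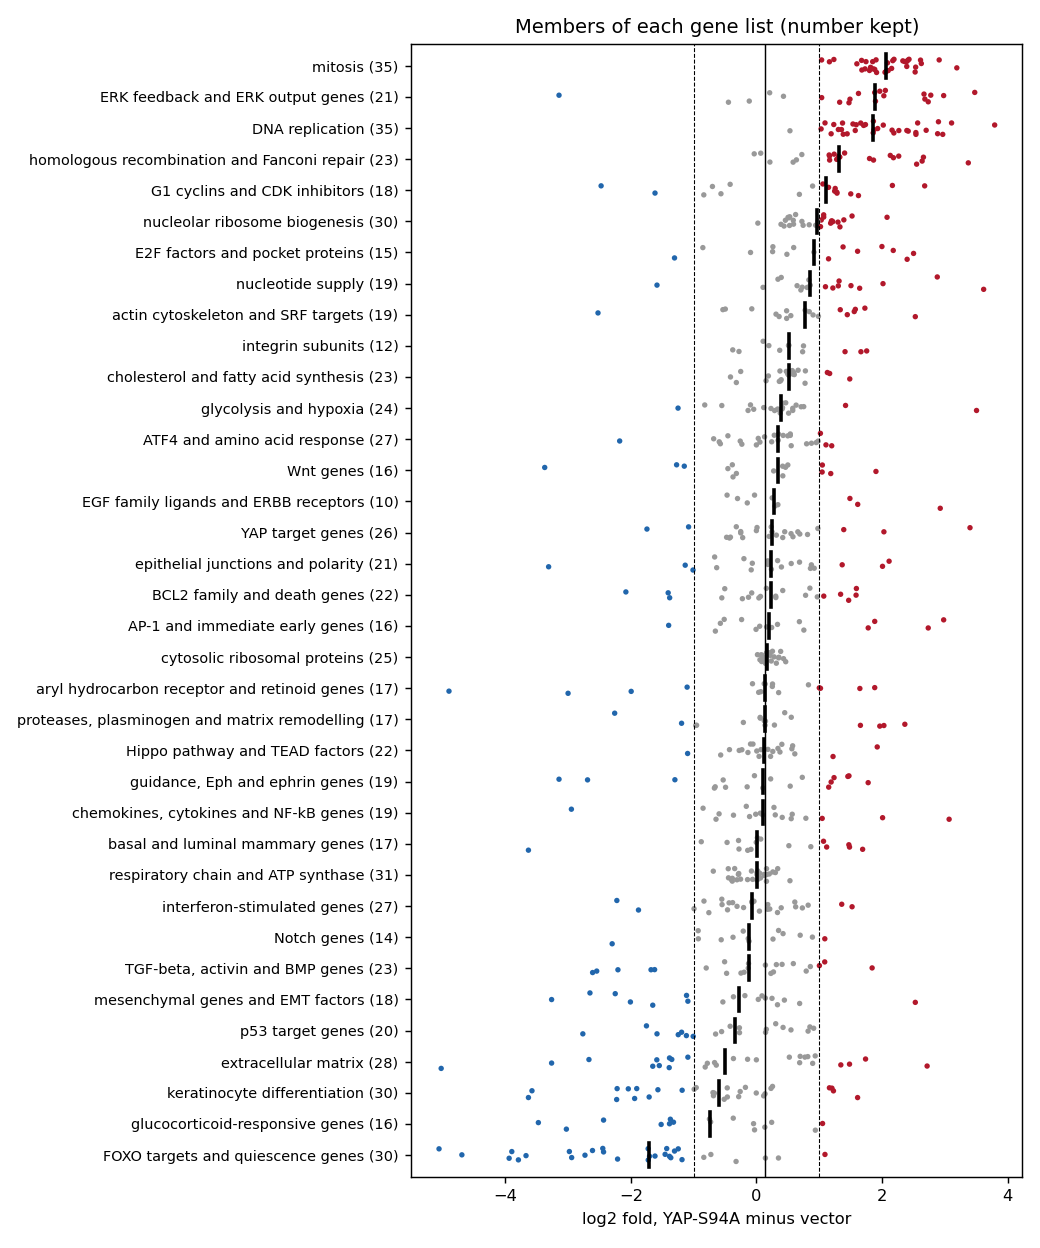
Each point is 1 gene, placed by the log2 fold of YAP-S94A over vector, in rows of gene lists ordered by their median (thick bar), with the number of genes kept in brackets; the solid line marks the median of all genes kept (0.14), dashed lines 2-fold, and red and blue points are at least 2-fold higher or lower. Mitosis (median 2.06), ERK output (1.88) and DNA replication (1.86) stand at the top, FOXO and quiescence genes (−1.71) at the bottom, and YAP target genes (0.24) near the middle.

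A direct reading of YAP-S94A against YAP-WT, arrays that do not involve vector, gave 646 genes (5.06%) past 2-fold upward and 800 (6.27%) downward, and the median over all genes was 0.01. In it 0 of the 35 mitosis genes passed 2-fold upward and 0 downward, with a median of 0.19, and 5 of the 35 replication genes were higher and 0 lower (median 0.49). Of the ERK output genes 7 of 21 were higher and 1 lower, and of the FOXO and quiescence genes 0 of 30 were higher and 11 lower. Mesenchymal genes had 10 of 18 lower and 1 higher, with a median of −1.13. The YAP targets, with 12 of 26 lower, and matrix genes, with 18 of 28 lower, held larger shares of lower genes than the 6.27% of all genes kept; the difference between these shares was not tested.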

How the data were processed

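Total RNA of 4 MCF10A cultures was measured on Affymetrix arrays, 1 array per group, so the number of arrays limits the precision. The deposited values are intensities on a linear scale; the submitters' processing notes name GCOS, the Affymetrix software. Its version, its scaling target and the genome build were not given in the sources used here. Of 54675 probe sets 62 were controls, 41097 had 1 gene symbol in the platform annotation, 1801 several and 11777 none; 41043 matched the RefSeq gene table and 0 symbols were updated. Gene-to-probe-set choice, floor (40th percentile), filter (50th percentile) and 2-fold size were as the report states, and log2 differences of floored intensities were taken with Python 3.11.15, pandas 2.3.3 and numpy 2.4.6. The procedure was tested on simulated data. No test or set test was computed, and a list's median counts genes at the floor at their bound.

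The gene lists and the genes named were chosen with earlier results of these data known. Named genes are the 20 highest and 20 lowest above the floor on both arrays, the 12 highest and 12 lowest bounds, list members past 2-fold or among the 4 nearest to 0, and all YAP target and Hippo genes; others are marked. Where probe sets of a named gene past 2-fold disagree in direction, this is stated. Promoters are from RefSeq (GRCh38.p14), 27305 genes by symbol, the first entry kept where several share one. Alternatives were another scaling (median centring, quantile), floor, filter and choice of probe set.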

Additional observations from a re-analysis of the deposited data

How the results depend on the processing

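With 1 array per group no replicate could be left out, and no paired analysis was possible because each group holds 1 array. The share of higher genes among those past 2-fold, 61.2% as reported, was 47.1% after median centring, 54.6% after quantile normalization, 57.5% without the filter on dim genes, 68.0% with a filter at the 75th percentile and 58.5% without probe sets of the _s_at and _x_at kinds. The filter at the 75th percentile, which leaves fewer genes, gave 745 higher and 351 lower, and averaging the probe sets of a gene gave 536 lower; the other counts were within 1.5 times those reported. Of 316 list medians under the alternatives, 307 stayed within the middle order statistics of the list's own genes, the tolerance used. The FOXO and quiescence median became −1.24 with probe sets averaged, the cholesterol and fatty acid median 0.36 after median centring and 0.35 after quantile normalization, and the ribosomal protein median −0.13 after quantile normalization. For the genes named, 1952 of 2033 values kept their side of 2-fold, 73 dropped under it and 6 passed it. POLA2 reversed to −0.32 and CFLAR to −1.73 without the _s_at and _x_at probe sets, where another probe set stands for the gene. ANKRD1, at the floor in both arrays, passed 2-fold upward with a floor at the 20th percentile. Apart from such construction, the cause of these shifts was not tested. Signal near the floor limits the folds of dim genes, which are bounds or close to bounds.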
